A study of Mus musculus with 6 samples.

Results

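The complement proteases MASP-1, MASP-2, C2, factor B and factor I and the protease inhibitor C1INH were followed at the RNA level in whole adrenal glands of circadian clock mutant mice, together with C3 and C4b. The list of 8 genes was Masp1, Masp2, C2, C3, C4b, Cfb, Cfi and Serping1, and a probe set belonged to it when the platform annotation gave it exactly 1 of these symbols. Of the 44935 probe sets of the array, 13 did, and they covered 6 of the 8 genes: 5 for Masp1, 3 for C2, 2 for Masp2 and 1 each for Cfb, Cfi and Serping1. No probe set met this rule for C3 or C4b, so neither has a value of its own here. The list was chosen from measured values of these same arrays, with the earlier comparison of the time points known, so the changes of its members are a description. Their SEs, 95% intervals and calls are those of the fit over all probe sets, and none is offered as evidence for the members.

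Glands of the later time point were dissected at 54 h and those of the earlier one at 46 h, counted since the lights went off, with 3 arrays each. Both came from male mice aged 3 months of genotype Per2Brdm1/Cry1-/- on a C57BL6x129Sv background. All 6 arrays thus come from double mutants of 2 clock repressors, which the labels call clock-deficient, and wild-type glands were not analysed here. All mice had spent 2 weeks in a light-dark cycle before constant darkness. Arrays of a time point are named replicates 1, B and C; whether each is a separate animal is not stated, so spreads between them may be technical in part. The values are array intensities in linear units, and they do not allow the level of 1 probe set to be set against that of another.

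Complement is a cascade of plasma proteins that tags microbes and damaged cells for removal. The classical pathway starts with C1q and its proteases C1r and C1s, and the lectin pathway with mannose-binding lectins, ficolins and collectins and their proteases, the MASPs. Both cleave C4 and C2 to form an enzyme that activates C3, while factor B supplies the equivalent protease of the alternative pathway. The liver makes most of the circulating proteins, but macrophages, fibroblasts and endothelial cells also express several of them, and C2, C4, factor B and C1INH are known to respond to interferon.

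Array medians ran from 203.9 to 217.2 units. Cortical and medullary markers were bright on every array: Star, which delivers cholesterol to the mitochondrion, averaged 16876 ± 403 units at 54 h, against 17478 ± 402 units at 46 h. Star stood at the top of the measured range, matching the highest value of 46 h replicates 1 and B (17813 and 17032 units). Whether values this high are saturated was not tested. Th, the first enzyme of catecholamine synthesis, averaged 8785 ± 446 units at 54 h, against 9097 ± 154 units at 46 h. Here and below, a mean is followed by the SD over the 3 arrays of its time point. In a gland measured whole, fewer cells of a type and less RNA per cell cannot be told apart. Probe sets were kept for the comparison when their mean of log2(intensity + 16) lay above the 40th percentile, which corresponds to 139 units. Of the 13 complement probe sets 10 passed this filter, and 2 of Masp1 and 1 of Masp2 lay under it.

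**Figure D1:**
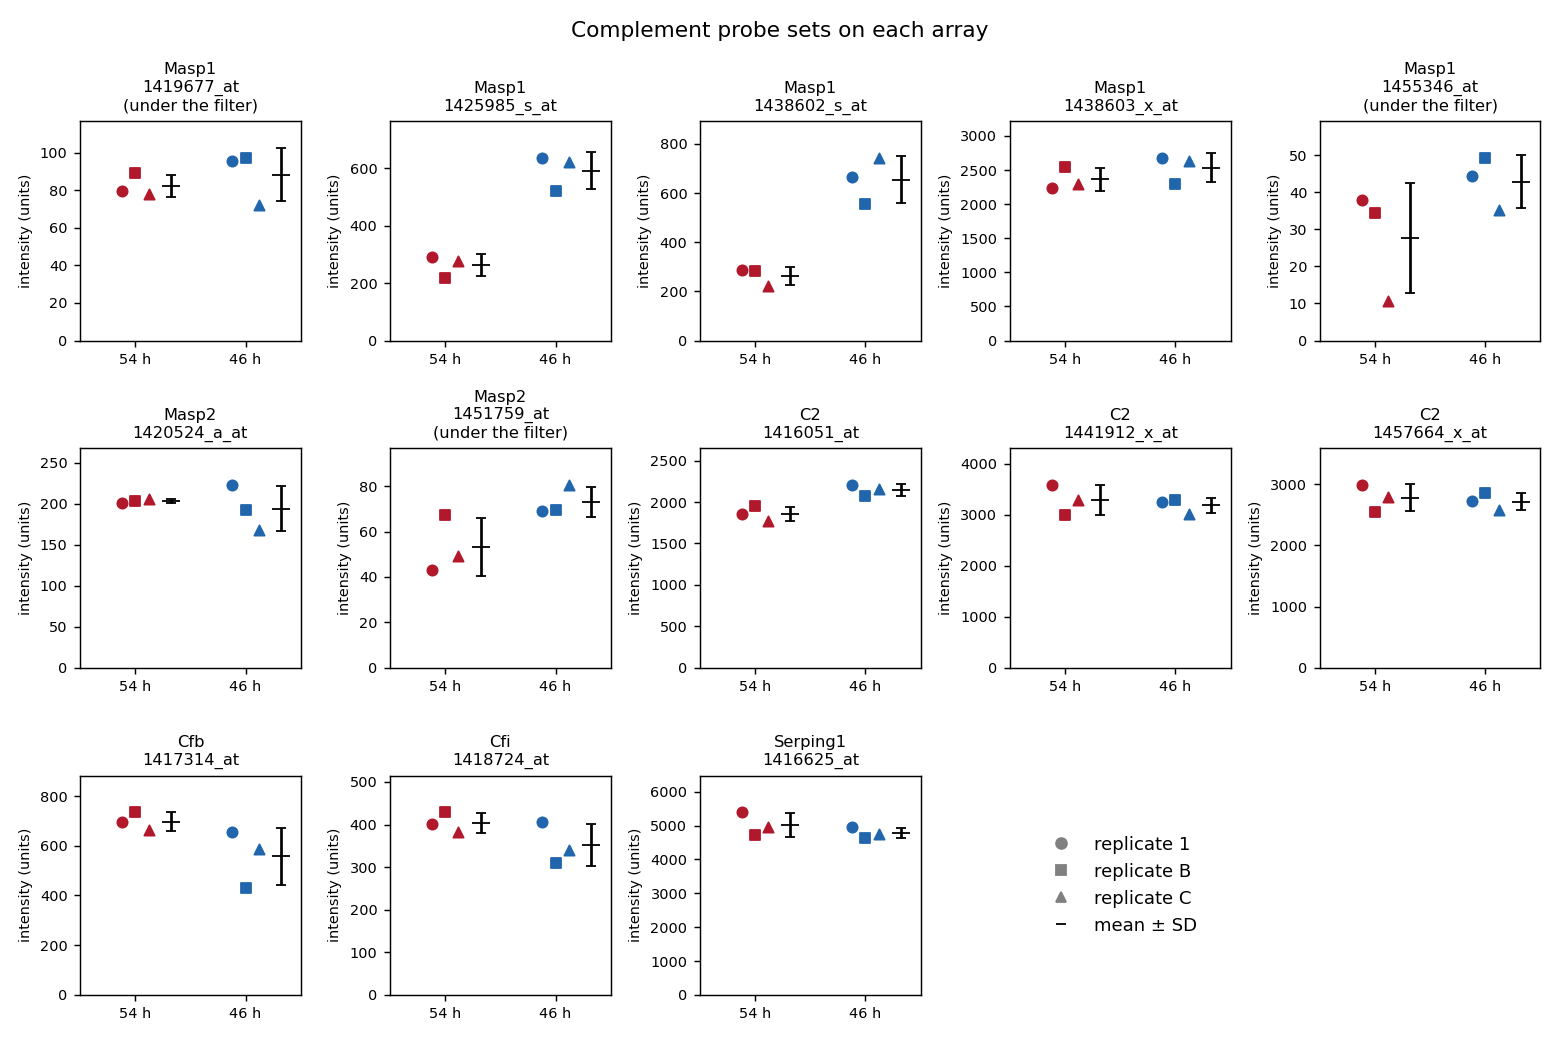
Intensity (linear units, y axis from 0 in each panel) of the 13 probe sets at 54 h (red, left) and 46 h (blue, right). Symbols mark the replicates and black bars the mean ± SD of 3 arrays. The probe sets 1425985_s_at and 1438602_s_at of Masp1 stood at 219 to 292 units at 54 h and at 519 to 743 units at 46 h, while the other panels differ far less.

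Masp1 encodes the lectin pathway protease MASP-1 and, by alternative splicing, the protease MASP-3 and the inhibitory fragment MAp44. Its probe sets disagreed. The probe set 1425985_s_at read 292, 219 and 276 units on the 54 h arrays in the order 1, B, C, and 636, 519 and 620 units on the 46 h arrays in that order. Every 54 h array thus lay below every 46 h array, and the means were 262 ± 38.5 units at 54 h, against 592 ± 63.6 units at 46 h. The log2 change, 54 h minus 46 h, was -1.13 ± 0.14 (SE; 95% interval -1.44 to -0.82), or a 2.19-fold lower level at 54 h.

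The probe set 1438602_s_at of Masp1 gave nearly the same picture. It read 287, 281 and 222 units at 54 h, against 666, 554 and 743 units at 46 h. The time points did not overlap, and the log2 change was -1.26 ± 0.14 (SE; 95% interval -1.59 to -0.94). Among all 26961 probe sets tested, 14 had a log2 change at or below that of 1425985_s_at, and 9 at or below that of 1438602_s_at.

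Another Masp1 probe set, 1438603_x_at, stayed close to its 46 h level. It read 2237, 2548 and 2302 units on the 54 h arrays and 2678, 2292 and 2628 units on the 46 h arrays. These ranges overlapped, and the log2 change was -0.10 ± 0.08 (SE; 95% interval -0.29 to 0.09). The suffix x marks probe sets in which some probes can also bind transcripts of other genes. The suffix s marks sets whose probes match more than 1 transcript, and these transcripts may belong to different genes. The sources used here do not say which of the splice forms each set reads, or whether transcripts of other genes add to its signal.

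The distance between these probe sets can be followed array by array. The value of 1425985_s_at minus that of 1438603_x_at, on the log2(intensity + 16) scale, was -2.87, -3.45 and -2.99 at 54 h and -2.05, -2.11 and -2.06 at 46 h. For 1438602_s_at minus 1438603_x_at the values were -2.89, -3.11 and -3.28 at 54 h and -1.98, -2.02 and -1.80 at 46 h. Both distances were wider on all 3 of the 54 h arrays than on any 46 h array. Between 1425985_s_at and 1438602_s_at, in contrast, the mean distance was -0.01 ± 0.32 at 54 h, against -0.14 ± 0.10 at 46 h.

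The remaining Masp1 probe sets were dim. The set 1419677_at averaged 82.2 ± 5.89 units at 54 h, against 88.2 ± 14.1 units at 46 h. The set 1455346_at averaged 27.7 ± 14.8 units at 54 h, against 42.9 ± 7.22 units at 46 h. Both pairs of ranges overlapped. For 1455346_at the spread at 54 h came from replicate C, which read 10.7 units where replicates 1 and B read 38.0 and 34.4.

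**Figure D2:**
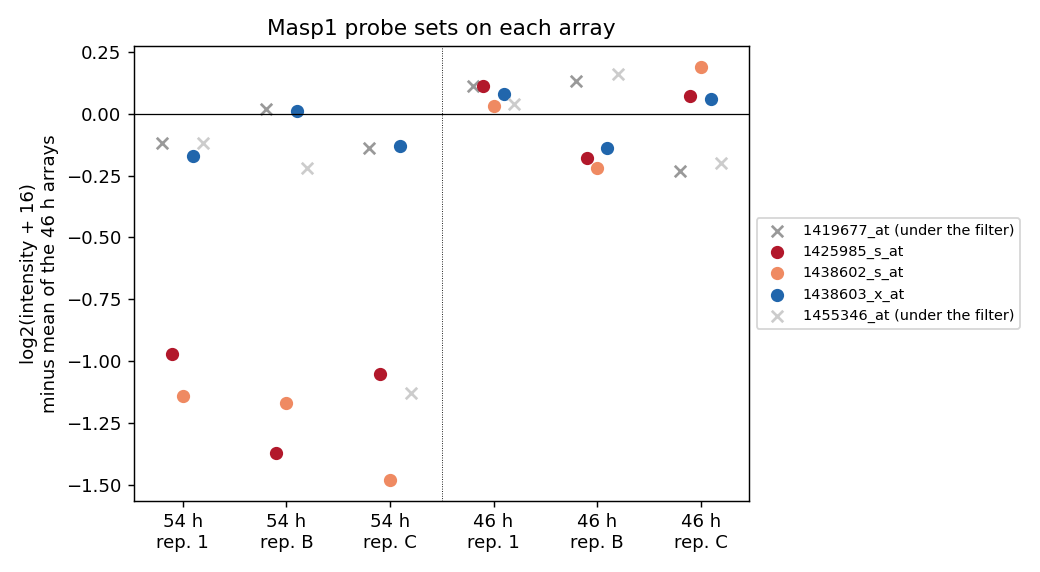
Deviation of each Masp1 probe set from its own 46 h mean, in log2(intensity + 16) (y axis), on each of the 6 arrays (x axis, 54 h left). Circles passed the filter and crosses did not. The sets 1425985_s_at and 1438602_s_at lie between -0.97 and -1.48 on the 54 h arrays, and 1438603_x_at between -0.17 and 0.01.

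Masp2 encodes the lectin pathway protease that cleaves C4 and C2, and a short splice form, MAp19. Its probe set 1420524_a_at read 201, 204 and 206 units at 54 h and 223, 192 and 168 units at 46 h. The 54 h values fell inside the 46 h range, with a log2 change of 0.07 ± 0.13 (SE; 95% interval -0.22 to 0.37). The dimmer set 1451759_at, under the filter, read 43.1, 67.3 and 49.1 units at 54 h and 69.0, 69.6 and 80.5 units at 46 h. These 54 h values all lay lower, by a narrow margin on replicate B. In the fit without a filter its log2 change was -0.38 ± 0.18 (SE; 95% interval -0.78 to 0.02). The estimates of the Masp2 sets thus had opposite signs, but their intervals overlapped and both held 0.

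Masp2 was also the one measured gene of the list with a promoter in the RefSeq table used (build GRCm38.p6), shown here so that its motif content can be read beside its level. The window chr4:148602294-148602593, plus strand, runs from 250 bases before the start site to 50 after it. Capitals mark the letters TTCNNNGAA, the form bound by STAT factors, found once, with its first base about 50 before the start site. Of the 32851 promoters in the table, 8.30% hold this motif on either strand. The letters GAAANNGAA (interferon response), GGGNNTTCC (NF-kB), TTGCNNAA (C/EBP) and TATAAA, searched on both strands, were not found in this window.
Masp2: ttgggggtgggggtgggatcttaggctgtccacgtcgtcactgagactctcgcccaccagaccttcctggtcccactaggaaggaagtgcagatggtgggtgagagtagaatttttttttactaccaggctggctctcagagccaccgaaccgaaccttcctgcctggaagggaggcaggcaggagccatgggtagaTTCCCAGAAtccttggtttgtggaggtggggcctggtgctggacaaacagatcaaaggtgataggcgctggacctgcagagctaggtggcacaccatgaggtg

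C2 is the protease subunit of the classical and lectin C3 convertase, and Cfb, its alternative pathway counterpart, is the next protein-coding gene beside it in the RefSeq gene table. The C2 probe set 1416051_at read 1850, 1948 and 1774 units at 54 h, against 2205, 2071 and 2157 units at 46 h. The time points did not overlap, although the log2 change was small, -0.21 ± 0.07 (SE; 95% interval -0.37 to -0.05). The other C2 sets did not share it: 1441912_x_at averaged 3283 ± 298 units at 54 h, against 3182 ± 146 units at 46 h, and 1457664_x_at 2780 ± 219 units at 54 h, against 2716 ± 139 units at 46 h. Their log2 changes were 0.04 ± 0.08 and 0.03 ± 0.08 (SE). These sets tracked each other closely, the log2 distance between them lying between 0.21 and 0.26 on every array, and both carry the suffix x.

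Cfb read 694, 735 and 662 units at 54 h and 654, 431 and 588 units at 46 h. All 54 h arrays lay above all 46 h arrays, but 54 h replicate C exceeded 46 h replicate 1 by little, and the log2 change was 0.33 ± 0.15 (SE; 95% interval 0.00 to 0.67). The low value of 46 h replicate B weighed on it: over the fits that each left out an array or changed a setting, the change ran from 0.16 to 0.46. Cfb and C2, neighbours in the genome, thus had estimates of opposite sign where C2 was read from 1416051_at.

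Cfi, the protease that inactivates C3b and C4b, read 402, 429 and 383 units at 54 h and 407, 309 and 341 units at 46 h. The ranges overlapped through 46 h replicate 1, and the log2 change was 0.20 ± 0.13 (SE; 95% interval -0.08 to 0.48). Serping1 encodes C1INH, which inactivates C1r, C1s and the MASPs. It read 5395, 4711 and 4946 units at 54 h and 4949, 4633 and 4760 units at 46 h, with overlapping ranges. Its log2 change was 0.07 ± 0.06 (SE), and the 95% interval of -0.07 to 0.20 holds no change larger than 0.20 in either direction.

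C4b could be looked at only through the probe set 1418021_at, which the annotation gives to both C4a and C4b and which is therefore no member. It read 4379, 5249 and 4793 units at 54 h and 5817, 5611 and 5843 units at 46 h. The 54 h arrays all lay lower, and the log2 change was -0.26 ± 0.07 (SE), with an adjusted p of 0.220 in limma. The genes C4a and C4b are near-identical copies, so its signal cannot be assigned to either.

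Over the 10 member probe sets that passed the filter, 6 log2 changes were above 0 and 4 below, with a median of 0.04, against a median of -0.02 over all probe sets tested. In limma, at an adjusted p of 0.05, 2 were called lower, both of Masp1, and 0 higher; over all probe sets 0.0556% were called lower and 0.0593% higher. The time points did not overlap for 4 of the 10, as they did not for 15.5% of all probe sets. Since the members were chosen from this same contrast, nothing is read from these counts. The Masp1 calls also rested on particular arrays: neither set passed without 46 h replicate 1 or without 54 h replicate C, where 2 probe sets in all passed in each fit, and 1425985_s_at did not pass without 46 h replicate C.

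By the distance between centred log2 values over the 6 arrays, the genes most like 1425985_s_at were Sbsn, at 0.258, Dnmt3l, at 0.271, and Mgst2, at 0.468, where the length of the Masp1 profile itself was 1.43. For 1438602_s_at, with a length of 1.60, they were Sbsn at 0.346, Dnmt3l at 0.520 and Erdr1 at 0.536. Sbsn and Dnmt3l had log2 changes of -1.16 and -0.98 on the same arrays, so the likeness lies in the step between the time points. By the same measure the profile of 1438603_x_at was nearest to Col5a2, a fibrillar collagen gene, at 0.0294, where its own length was 0.252.

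The other genes of the complement system were read from their brightest probe set. Of 56 symbols listed, older names included, 41 had a probe set and 31 passed the filter. In limma 0 of the 31 passed at an adjusted p of 0.05, where 0.109% of all 13780 genes did. At an unadjusted p of 0.05, 6 were lower, or 19.4%, and 2 higher, or 6.45%; over all genes 6.2% were lower and 4.11% higher. With arrays centred on their medians these became 4 lower and 2 higher, against 530 lower and 539 higher of all genes where 854 and 567 stood before; with quantile normalization they were 6 lower and 3 higher, against 854 lower and 792 higher of all genes. Their median log2 change was -0.06, against -0.02 over all genes.

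Genes that start the cascade had estimates mostly below 0. Of 10 measured, 8 had a log2 change below 0, where the median over all genes was -0.02. Among the 8 is Fcna, whose change rounds to 0.00 ± 0.15 (SE). The share of all genes below 0 was not counted. At an unadjusted p of 0.05 in limma 5 were lower, against 6.2% of all genes, and 0 passed an adjusted p of 0.05. The 5 include C1qb and C1qc, chains of the same protein. C1qc, a chain of the recognition protein C1q, read 1460, 1639 and 1492 units at 54 h and 1971, 1807 and 2244 units at 46 h, without overlap. Its log2 change was -0.38 ± 0.10 (SE), with an adjusted p of 0.212 in limma. The C1q chains differed among themselves: C1qb had -0.14 ± 0.05 (SE; adjusted p = 0.430 in limma), with 0.05 and -0.24 in its other probe sets, and C1qa had 0.02 ± 0.10.

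Colec11, a collectin that binds the MASPs, averaged 391 ± 26.5 units at 54 h, against 511 ± 43.7 units at 46 h, without overlap. Its log2 change was -0.37 ± 0.11 (SE; adjusted p = 0.312 in limma), against -0.09 in its dimmer probe set. Mbl1, a mannose-binding lectin gene, read 284, 296 and 308 units at 54 h and 238, 277 and 222 units at 46 h. Here all 54 h arrays lay higher, with a log2 change of 0.26 ± 0.12 (SE; adjusted p = 0.516 in limma). C1ra, a C1r gene, had a log2 change of -0.18 ± 0.06, and Cfp, which encodes properdin, the stabiliser of the alternative convertase, -0.44 ± 0.15 (SE; adjusted p = 0.398 and 0.370 in limma). Cfp was dim, at 136 ± 24.3 units at 54 h, against 188 ± 18.4 units at 46 h. Its other set, under the filter, had -0.22 with overlapping time points.

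Components downstream of the convertases, inhibitors and receptors gave few differences at an unadjusted p of 0.05 in limma. With 3 arrays per time point, a gene that did not reach it may still have changed. Of the 5 downstream components measured, 0 reached an unadjusted p of 0.05 in limma (0 adjusted); Hc, which encodes C5, averaged 133 ± 10.8 units at 54 h, against 149 ± 27.8 units at 46 h. Of the fluid-phase inhibitors besides the members, 2 were measured. Clu was bright and near level, at 11134 ± 140 units at 54 h, against 11052 ± 343 units at 46 h. Its log2 change was 0.01 ± 0.03 (SE), with -0.05, 0.01 and 0.08 in its other probe sets. Vtn, vitronectin, which blocks the membrane attack complex, read 210, 253 and 212 units at 54 h and 171, 109 and 136 units at 46 h, all 54 h arrays being higher. Its log2 change was 0.66 ± 0.17 (SE), with an adjusted p of 0.224 in limma. A dimmer Vtn probe set, under the filter, had 0.03. Among the membrane regulators Cd55, decay-accelerating factor, read 581, 487 and 557 units at 54 h and 977, 592 and 836 units at 46 h. The 54 h arrays were all lower, and the log2 change was -0.53 ± 0.17 (SE; adjusted p = 0.335 in limma), with -0.42 and -0.29 in its other sets. Cr1l, the rodent regulator Crry, had -0.04 ± 0.06, with 0.39 in a dimmer set that carries the suffix x. Of 9 receptor genes only Itgam, a chain of complement receptor 3, reached an unadjusted p of 0.05, with a log2 change of 0.45 ± 0.17 and overlapping time points; it is named after its value was seen. The anaphylatoxin receptor gene C3ar1 had 0.01 ± 0.18 (SE).

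**Figure D3:**
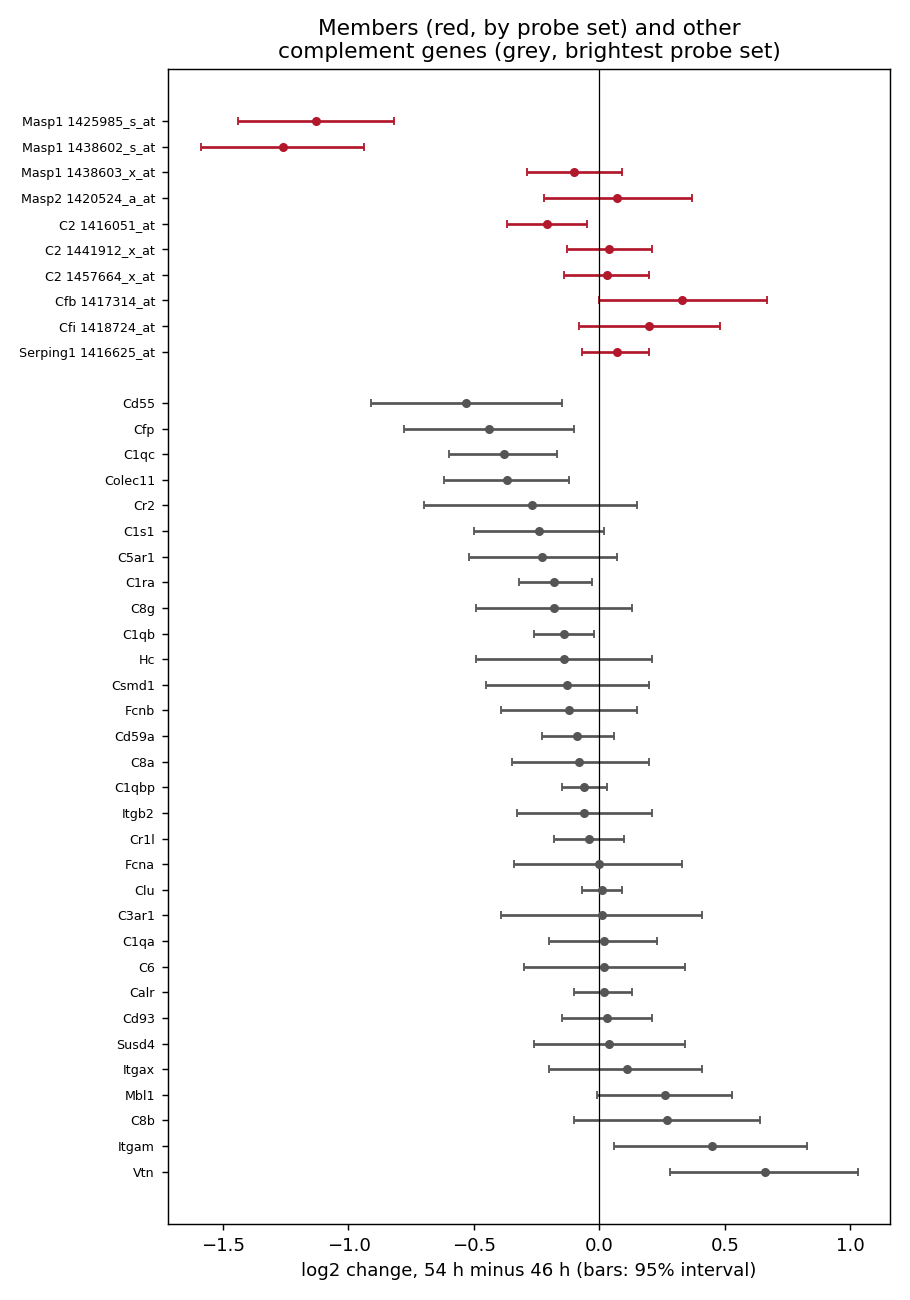
Log2 change, 54 h minus 46 h (x axis), of the 10 member probe sets that passed the filter (red) and of 31 other complement genes (grey); bars are 95% intervals of the limma fit. The Masp1 sets 1425985_s_at and 1438602_s_at lie at -1.13 and -1.26, and every other value lies between -0.53 and 0.66.

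Markers of tissues and responses known for complement expression were read, as lists, on the same arrays. The counts below stand beside those over all genes, of which 6.2% were lower and 4.11% higher at an unadjusted p of 0.05 in limma. Of the marker lists the liver one alone held genes past an adjusted p of 0.05 in limma. All 12 liver genes measured had a log2 change above 0, 10 were higher at an unadjusted p of 0.05 and 2 at an adjusted one, and the list stood 0.61, 1.10 and 0.81 above its 46 h mean on the 54 h arrays, against 0.17, -0.34 and 0.17 on the 46 h arrays. The summed intensity of the list was 9110 to 13370 units at 54 h and 4283 to 6604 at 46 h. Alb, albumin, read 3319, 5236 and 4303 units at 54 h and 2656, 1565 and 2311 at 46 h. Cfb and Cfi, which the liver expresses, had their lowest value on 46 h replicate B and their highest on 54 h replicate B, as Alb did. Other members did not share both of these. Serping1 was also lowest on 46 h replicate B (4633 units), but it was highest on 54 h replicate 1 (5395 units). Masp2 in 1420524_a_at was highest on 46 h replicate 1 (223 units). C2 in 1441912_x_at and 1457664_x_at was lowest on 54 h replicate B (2984 and 2552 units). By profile distance, Esrrg, Cox7a1 and Oca2 were nearest to Cfb, and Serpina3n, which is on the acute phase list, Hpse and Mov10 to Cfi. This distance counts the size of a change as well as the order of the arrays. The liver list had a median log2 change of 0.88, against 0.33 for Cfb and 0.20 for Cfi. Liver genes with changes of that size could not be near, so nothing about liver RNA is read from these neighbours. Masp1 in 1425985_s_at and 1438602_s_at was lower at 54 h, where the liver list was higher. The part of liver RNA in these values was not tested.

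Interferon response genes had log2 changes below 0 in all 18 measured, 8 of them at an unadjusted p of 0.05 and 0 at an adjusted one in limma. The list stood at -0.24, -0.30 and -0.34 on the 54 h arrays and at 0.04, -0.11 and 0.07 on the 46 h arrays, and its summed intensity was 9179 to 10083 units at 54 h and 10683 to 12288 at 46 h. Irf7, an interferon regulatory factor, averaged 412 ± 22.5 units at 54 h, against 655 ± 110 units at 46 h. Among the genes known to respond to interferon, C2 in 1416051_at and the shared C4a and C4b probe set were lower. The brighter C2 sets 1441912_x_at and 1457664_x_at had log2 changes of 0.04 and 0.03. Cfb had an estimate above 0, and that of Serping1, 0.07 ± 0.06 (SE), lay near 0. The part of the interferon response in these values was not tested.

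Macrophage and monocyte genes had summed intensities of 25918 to 27293 units at 54 h and 28639 to 30047 at 46 h, 11 of 15 having a log2 change below 0. In limma 4 were lower at an unadjusted p of 0.05 and 0 at an adjusted one, and the median log2 change was -0.14. This list holds C1qa, C1qb and C1qc. All its defining markers were present, with Adgre1 at 1354 ± 62.8 units at 54 h, against 1340 ± 50.9 units at 46 h, and Csf1r at 3920 ± 413 units at 54 h, against 3864 ± 560 units at 46 h. The log2 changes were 0.01 for Adgre1 and 0.03 for Csf1r, but -0.23 for Cd68, a lysosomal glycoprotein of macrophages. Acute phase genes had a median log2 change of 0.18 over 8 measured, with 0 past an adjusted p of 0.05 and 1, higher, at an unadjusted one in limma. Adipose genes had 5 of 9 log2 changes above 0 and a median of 0.10, 3 reaching an unadjusted p of 0.05, all higher, and 0 passing an adjusted one in limma. Adipoq, the adiponectin gene, was at 6997 ± 1211 units at 54 h, against 7490 ± 601 units at 46 h. Fibroblast and endothelial genes had medians of -0.17 and -0.09, each list with 6 of 8 log2 changes below 0 and 2 genes lower at an unadjusted p of 0.05. Cortical and medullary genes had medians of -0.06 and -0.08, with all 9 and all 7 below 0, and 1 medullary gene reached an unadjusted p of 0.05. None of these 4 lists had a gene past an adjusted p of 0.05 in limma. The part of these cells in the complement values was not tested.

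**Figure D4:**
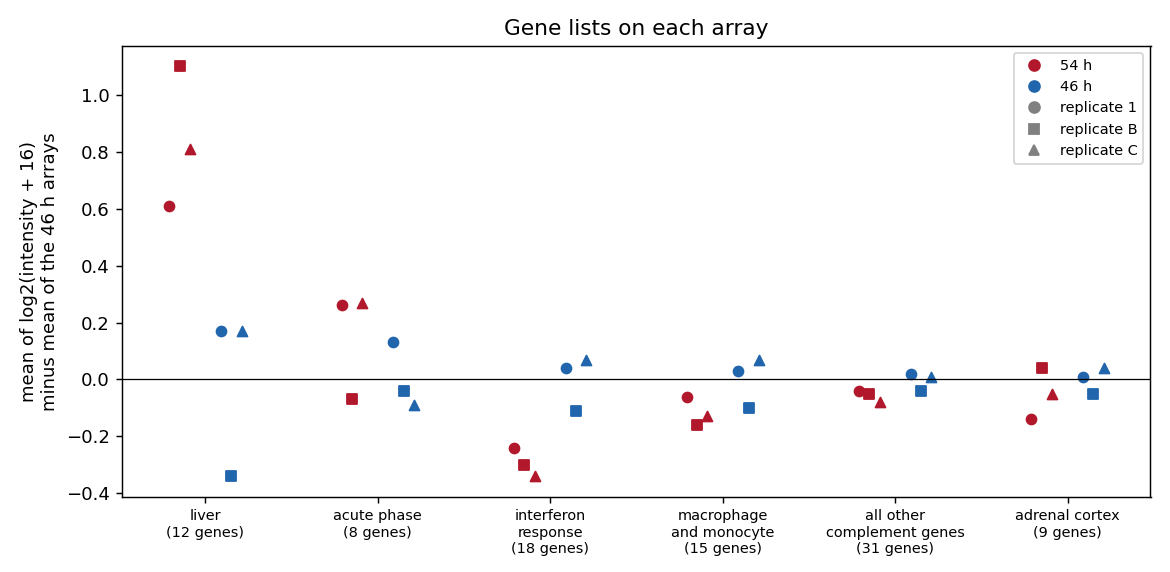
Mean of log2(intensity + 16) over each list, minus its mean over the 46 h arrays (y axis), for 6 lists (x axis), with 54 h in red left of 46 h in blue; symbols mark the replicates. The liver list lies at 0.61 to 1.10 at 54 h, the interferon response list at -0.34 to -0.24, and the other complement genes at -0.08 to -0.04.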

How the data were processed

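The values were 1 linear intensity per probe set and array, in a table deposited by the authors for the whole series; the summarisation, background correction and normalization are not given in the sources used here. Total RNA was column-purified and biotin-labelled, per the labels' protocols. Of 45001 probe sets, 64 controls, 1 without a value and 1 with a damaged value were left out. Probe sets were named through the platform annotation. Array medians after filtering differed by 0.0728 (log2), under the limit of 0.1, so no normalization was added.

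Intensities were transformed as log2(intensity + 16), which understates changes of dim probe sets. Arrays of 54 h and 46 h were compared in limma 3.58.1 (R 4.3.3; lmFit and trended eBayes, two-sided). P-values were adjusted by the Benjamini-Hochberg method across the 26961 probe sets kept. A single value cannot reach an exact p under 0.1 with 3 against 3 arrays, a number that limits the precision. Settings and lists stand in the text. Other complement genes were named by a rule: those past the adjusted threshold, the 6 smallest unadjusted p and well-known members. Itgam, Mbl1, Fcna and Clu, named after their values were seen, are exceptions. Marker lists were given by counts and set defining genes, and the genes most like a member by the distance between centred log2 values. Members, lists and rule were chosen with earlier results of these data known. The fit was tested on simulated data.

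Alternatives were other normalizations, filters, offsets and variance priors, the mean over a gene's probe sets, the replicate name as a block and leaving out each array. Cfd and Plin1 were not analysed here, and Lcn2 lay under the filter.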

Additional observations from a re-analysis of the deposited data

How the results depend on the processing

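The count of 31 called probe sets became 48 with the filter at the 60th percentile, 47 with quantile normalization, 61 with a robust fit and 3 without an intensity trend; leaving out an array gave 2 to 65 (2 when 46 h replicate 1 or 54 h replicate C was left out, 18 for 46 h replicate B, and 65 and 61 for 54 h replicates 1 and B). The 8 other complement genes at an unadjusted p of 0.05 became 5 with the filter at the 60th percentile and 4 to 9 without an array, 4 without 46 h replicate 1 or 54 h replicate C. None of the 31 passed at an adjusted p of 0.05 in any of these fits. The median over member probe sets, 0.04, became -0.08 with no filter, which adds the 3 dim sets. Masp1 kept its direction in all 15 alternatives, at -1.22 to -1.01 (1425985_s_at, past the threshold in 11, limma adjusted p 0.0136 to 0.198) and -1.37 to -1.13 (1438602_s_at, past it in 12, 0.0133 to 0.190); both lost the call without an intensity trend. Of the other member sets, Masp2 1420524_a_at and C2 1441912_x_at and 1457664_x_at, near 0, changed sign in 1 or 2 fits without an array. With the replicate name as a block, 45 probe sets and 6 other complement genes (these at an unadjusted p of 0.05) were called, with a median of 0.04 over member probe sets. Deviations of arrays of the same name correlated at -0.06, -0.41 and -0.49, so the names do not pair the arrays. Between arrays of different names, 54 h replicate B with 46 h replicate C gave 0.38, and 54 h replicate C with 46 h replicate B gave 0.46. The other pairs lay between -0.04 and 0.13. Whether arrays of the 2 time points share a further factor was not tested. The causes of the shifts between fits were not tested, apart from the added dim sets.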
